A study of Mus musculus with 6 samples.

Results

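The interleukin-6 (IL-6) pathway of the mouse liver was followed here through 9 genes, chosen by name: the ligand Il6, its own receptor Il6ra, the related receptors Osmr and Lifr, the shared receptor chain Il6st (gp130), the kinases Jak1, Jak2 and Tyk2, and the transcription factor Stat3. All 9 were among the 24346 gene symbols of the deposited table. RNA sequencing had been done on liver tissue of 3 control mice and 3 lipophagy-induced mice, all male C57BL/6J. Feeding of CDAHFD, a fat-rich diet that lacks choline, gives amino acids in place of protein and produces steatohepatitis, began at 8 weeks of age and went on for 6 weeks. Normal chow followed, and the livers were taken 2 weeks later. Both groups carried an AAV8 vector whose thyroxine-binding globulin promoter is active in hepatocytes, and both vectors encoded the lipid droplet-targeting sequence (LDTS) of perilipin 1, which is itself mildly lipogenic. In control mice it was joined to a mutated LC3-binding region (LDTS-LIR mut). In lipophagy mice it was joined to an LC3-binding region derived from optineurin (LDTS-eLIR), which recruits autophagosomes to lipid droplets. No livers without a vector or without the diet were analysed here, so the levels belong to livers recovering from the diet.

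IL-6 binds its receptor, and the pair engages gp130, which carries no enzyme activity of its own. The Janus kinases bound to gp130 then phosphorylate STAT3, which enters the nucleus and switches on target genes, among them the feedback inhibitor Socs3. Oncostatin M and leukemia inhibitory factor use the same chain paired with their own receptors, and in hepatocytes this pathway is the classic driver of the acute phase response. The activity of JAK kinases and STAT3 is set by phosphorylation, which RNA levels do not measure.

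The values are FPKM, fragments scaled to transcript length and to the mapped total of the library. From the steps between low values the depth was estimated at 22.6 to 33.6 M fragments per liver, and Spearman correlations between livers across genes were 0.979 to 0.982. Differences are lipophagy minus control on the log2(FPKM + 1) scale, where low genes show less than their true fold. Testing by limma covered 11493 genes whose 6 livers averaged 0.5 FPKM or more, and p-values were adjusted over all of them by the Benjamini-Hochberg method. The hepatocyte markers summed to 59774 to 66563 FPKM in control livers and to 72695 to 94525 FPKM in lipophagy livers, and none was at 0. In whole tissue, fewer cells of a type and less RNA per cell cannot be told apart.

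No gene of the pathway passed the adjusted test. Among the 8 genes above the filter the adjusted p ranged from 0.169 to 0.927, while 3 of the 11493 genes (0.0261%) passed. Il6ra and Osmr had an unadjusted p below 0.05, which is 2 of 8 genes beside 19.5% of all tested genes. Il6ra, Osmr and Tyk2 did not overlap between the groups, which is 3 of 8 genes beside 26.2% of all tested genes. Osmr is in both counts, though its mean passed the filter through the control livers alone. Lipophagy livers were all above control livers for 15.4% of tested genes and all below for 10.8%. Of the 8 genes, 4 had a difference above 0 and 4 below 0, with a median of -0.031 beside 0.020 over all tested genes.

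**Figure D1:**
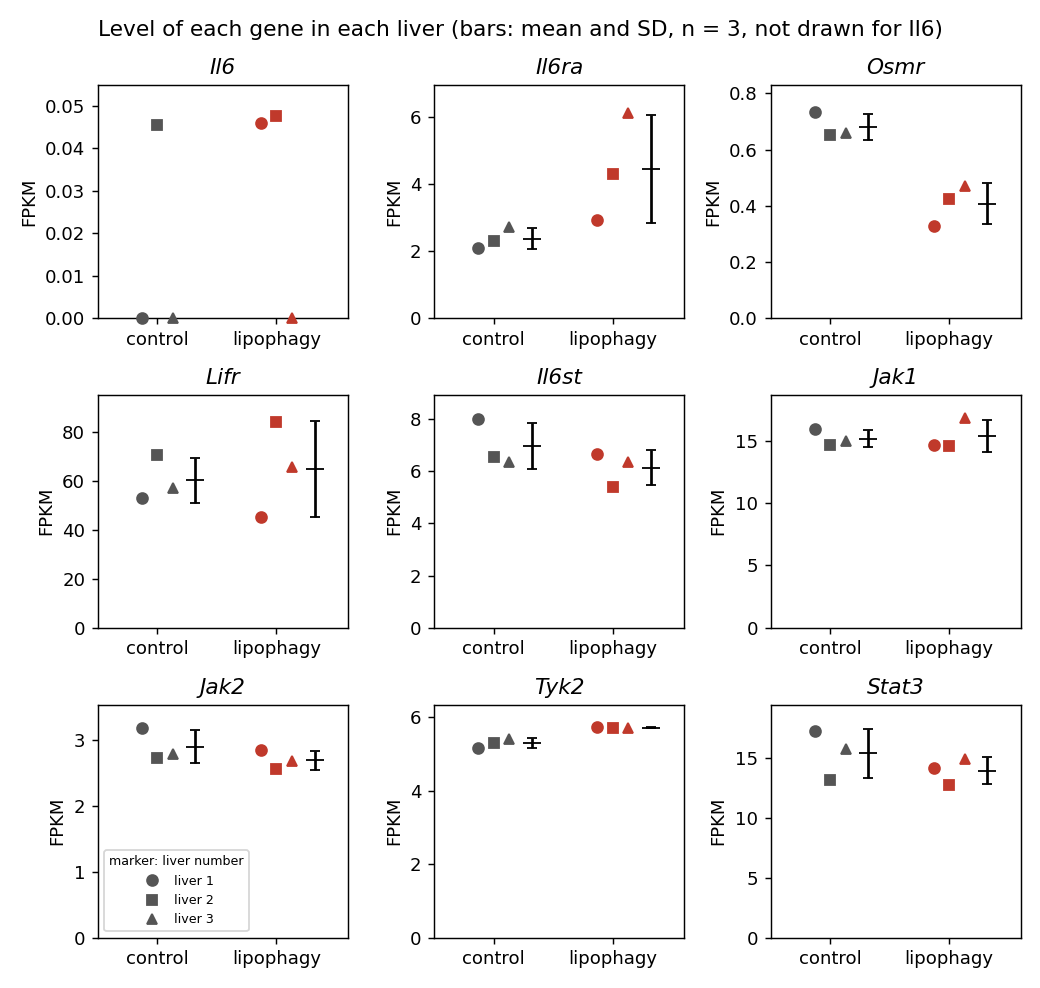
Level of each of the 9 genes in FPKM (vertical axis, from 0, a different range in each panel) in 3 control livers (grey) and 3 lipophagy livers (red), with the marker shape giving the liver number and the black bars the mean and SD. Il6ra lies at 2.09 to 2.71 FPKM in control livers and at 2.91 to 6.12 FPKM in lipophagy livers, Osmr at 0.650 to 0.734 and 0.329 to 0.469 FPKM, and Il6 reaches 0.0476 FPKM at most.

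The ligand was at the edge of detection. Il6 (ENSMUSG00000025746.11, chr5:30013114-30019981, plus strand, GRCm38) had 0, 0.0456 and 0 FPKM in control livers 1, 2 and 3 and 0.0459, 0.0476 and 0 FPKM in lipophagy livers 1, 2 and 3. Scaled by the relative depth of each liver, the 3 values above 0 lay within 0.310% of their mean, so these livers held equal numbers of fragments. From the spliced transcript of 1141 bases that number was estimated at 1.06, or 1 fragment in 1 control liver and in 2 lipophagy livers. Another transcript length would change this estimate. The other 3 livers held none. In those 3 livers a count of 0 allows up to 3 fragments, which is 0.122 FPKM in control liver 1, 0.0958 FPKM in control liver 3 and 0.131 FPKM in lipophagy liver 3 if each value above 0 is 1 fragment, with counting error alone considered. Il6 stayed below the filter and was not tested, and a difference between the groups was not detectable at this depth.

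Sequence upstream of the start site is shown for 3 genes, namely the ligand, the receptor with the largest difference, and the transcription factor at the end of the pathway. Each is the 250 bases before the RefSeq start site (GRCm38.p6), 5′ to 3′ on the gene's own strand, with capitals marking the motifs found. The windows are chr5:30012864-30013113 (plus strand) for Il6, chr3:89913197-89913446 (minus strand) for Il6ra and chr11:100939541-100939790 (minus strand) for Stat3.
Il6: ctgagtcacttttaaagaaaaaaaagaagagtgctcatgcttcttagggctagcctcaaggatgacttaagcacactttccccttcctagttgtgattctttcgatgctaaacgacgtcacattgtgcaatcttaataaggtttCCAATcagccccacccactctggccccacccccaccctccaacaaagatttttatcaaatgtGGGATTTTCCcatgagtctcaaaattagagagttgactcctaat
Il6ra: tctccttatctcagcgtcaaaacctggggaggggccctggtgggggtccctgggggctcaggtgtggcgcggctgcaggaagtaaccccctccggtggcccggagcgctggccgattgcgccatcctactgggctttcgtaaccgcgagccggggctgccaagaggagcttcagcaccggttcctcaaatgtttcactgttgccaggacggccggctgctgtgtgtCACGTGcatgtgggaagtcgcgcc
Stat3: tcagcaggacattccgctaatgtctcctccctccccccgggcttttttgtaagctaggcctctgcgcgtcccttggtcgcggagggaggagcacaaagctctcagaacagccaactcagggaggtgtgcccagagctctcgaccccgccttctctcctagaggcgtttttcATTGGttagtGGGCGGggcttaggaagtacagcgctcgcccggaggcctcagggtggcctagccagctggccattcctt
Both strands of all windows were searched for the STAT palindrome TTCNNNGAA, the NF-kB site, the cyclic AMP response element TGACGTCA, the CCAAT box CCAAT, the TATA box TATAAA, the E-box CACGTG and the GC box GGGCGG. The Il6 window holds GGGATTTTCC, a match to the NF-kB motif, 44 bases before the start site, and a CCAAT box 106 bases before it. The NF-kB motif was found in 0.356% of 32851 promoter windows of the same length. The Il6ra window holds an E-box 24 bases before the start site, a motif of 6.02% of windows. In the Stat3 window a CCAAT box on the opposite strand, read as ATTGG, lies 79 bases before the start site and a GC box lies 69 bases before it, motifs of 33.8% and 32.7% of windows. The STAT palindrome was found in 0 of the 10 windows of the 9 genes and in 7.02% of all windows. A match or its absence describes these letters in these windows only.

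Among the 8 tested genes of the 9, Il6ra, the chain that binds IL-6 itself, had the largest difference. Its level was 2.09, 2.31 and 2.71 FPKM in control livers 1, 2 and 3 and 2.91, 4.31 and 6.12 FPKM in lipophagy livers 1, 2 and 3. Every lipophagy liver lay above every control liver, though lipophagy liver 1 exceeded the highest control liver only narrowly. The means were 2.37 ± 0.313 FPKM (SD, n = 3) in control and 4.45 ± 1.61 FPKM (SD, n = 3) in lipophagy, and the coefficient of variation was 13.2% and 36.2%. The difference was 0.65 (SE 0.20, 95% interval 0.20 to 1.11), with an unadjusted p of 0.0105 and an adjusted p of 0.170 (limma), so it did not pass the adjustment. An estimated 173 to 479 fragments per liver stood behind these values. In GENCODE the antisense transcript Gm42809 overlaps the first exon of Il6ra (ENSMUSG00000027947.11, chr3:89864059-89913196, minus strand), and whether fragments were counted by strand is not given in the sources used here.

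Osmr, the oncostatin M receptor chain that pairs with gp130, lay on the other side. It had 0.734, 0.650 and 0.659 FPKM in control livers 1, 2 and 3 and 0.329, 0.425 and 0.469 FPKM in lipophagy livers 1, 2 and 3. All lipophagy livers were below all control livers, and the range of neither group reached the other. The means were 0.681 ± 0.0463 FPKM (SD, n = 3) and 0.408 ± 0.0716 FPKM (SD, n = 3). The difference was -0.26 (SE 0.077, 95% interval -0.43 to -0.079), with an unadjusted p of 0.0103 and an adjusted p of 0.169 (limma). Osmr is a low gene, at an estimated 41.2 to 118 fragments per liver. Its mean passed the filter of 0.5 FPKM through the control livers alone. With a pseudocount of 0.1 in place of 1 the difference was -0.63, and after quantile normalization it was -0.17.

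Lifr, the receptor chain for leukemia inhibitory factor, was by far the most abundant of the 9 transcripts. The control livers held 53.1, 70.5 and 57.1 FPKM and the lipophagy livers 45.2, 84.3 and 65.6 FPKM. Both the lowest and the highest liver were lipophagy livers. The difference was 0.074 (SE 0.21, 95% interval -0.41 to 0.56, adjusted p = 0.868, limma), and its sign turned after quantile normalization (-0.058) and without lipophagy liver 2 (-0.13). The table gives 1 value per gene, so the membrane-bound and the soluble form of Lifr known in the mouse are not separated.

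Il6st encodes gp130, the signalling chain that all of these receptors share. Its level was 7.97, 6.52 and 6.35 FPKM in control livers and 6.66, 5.37 and 6.34 FPKM in lipophagy livers. The groups overlapped, with control liver 1 the highest and lipophagy liver 2 the lowest. The difference was -0.16 (SE 0.11, 95% interval -0.41 to 0.097, adjusted p = 0.450, limma).

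As a share of the summed FPKM of the 4 receptor genes, Lifr took 85.6% ± 2.53 (SD, n = 3) in control and 85.0% ± 3.84 (SD, n = 3) in lipophagy livers. Il6st ran from 8.15% to 12.5% and from 5.69% to 12.1%. The share of Il6ra was 3.40% ± 0.596 and 5.88% ± 1.69, and that of Osmr was 0.983% ± 0.169 and 0.548% ± 0.0854. Lifr thus held most of the receptor transcript in both groups, and the groups did not overlap in the 2 smallest shares. These shares are computed from the levels of Il6ra and Osmr, which did not overlap either. By level, 26.2% of all tested genes did not overlap.

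The kinases differed little between the groups. Jak1, the kinase most needed for signalling through gp130, had 15.9, 14.6 and 15.0 FPKM in control livers and 14.7, 14.6 and 16.9 FPKM in lipophagy livers. The groups overlapped, with lipophagy liver 3 above all control livers, and the difference was 0.017 (SE 0.085, 95% interval -0.18 to 0.21, adjusted p = 0.927, limma), turning to -0.062 after quantile normalization.

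Jak2, which also binds gp130 and serves the growth hormone receptor, was at 3.18, 2.73 and 2.78 FPKM in control livers and at 2.84, 2.55 and 2.67 FPKM in lipophagy livers. Its ranges overlapped as well, with a difference of -0.079 (SE 0.083, 95% interval -0.27 to 0.11, adjusted p = 0.615, limma).

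Tyk2, which also serves interferon receptors, was at 5.16, 5.32 and 5.42 FPKM in control livers and at 5.74, 5.72 and 5.70 FPKM in lipophagy livers. The lipophagy livers lay close together and all above the control livers, but the step was small. It came to 0.094 (SE 0.071, 95% interval -0.069 to 0.26), with an unadjusted p of 0.220 and an adjusted p of 0.474 (limma). The test shares its estimate of the spread with other genes of like level, and the interval includes 0 although the ranges do not overlap.

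Stat3 was among the more abundant of these transcripts. Control livers held 17.2, 13.2 and 15.7 FPKM and lipophagy livers 14.2, 12.7 and 14.9 FPKM. The 2 ranges overlapped, with means of 15.4 ± 2.05 FPKM (SD, n = 3) and 13.9 ± 1.12 FPKM (SD, n = 3). The difference was -0.13 (SE 0.11, 95% interval -0.38 to 0.13, adjusted p = 0.533, limma).

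**Figure D2:**
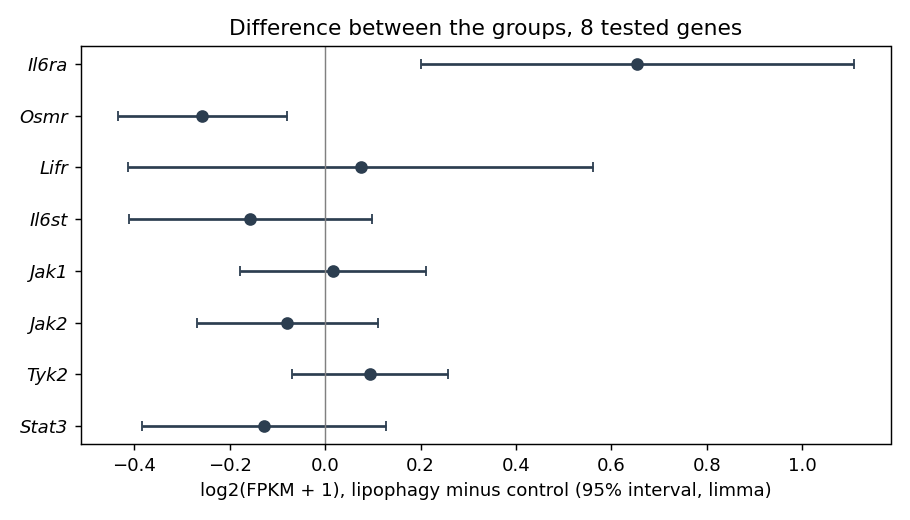
Difference between lipophagy and control livers on the log2(FPKM + 1) scale (horizontal axis) for the 8 tested genes, as the limma estimate (point) with its 95% interval (bar). The intervals of Il6ra (0.20 to 1.11) and Osmr (-0.43 to -0.079) leave out 0, and those of the other 6 genes include it.

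By level per length, the order in control livers was Lifr, Stat3, Jak1, Il6st, Tyk2, Jak2, Il6ra, Osmr and Il6. Stat3 and Jak1 were the only neighbours whose ranges overlapped. In lipophagy livers the order was Lifr, Jak1, Stat3, Il6st, Tyk2, Il6ra, Jak2, Osmr and Il6, and the ranges overlapped between Jak1 and Stat3, between Il6st and Tyk2, and between Tyk2 and Il6ra. Il6ra lay below Jak2 in 3 of 3 control livers and above it in 3 of 3 lipophagy livers. The margin was narrow in control liver 3 (2.71 against 2.78 FPKM) and in lipophagy liver 1 (2.91 against 2.84 FPKM).

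A ratio within a liver does not depend on how that liver was scaled, so each gene was also set against gp130, over 7 ratios in all. The FPKM ratio of Il6ra to Il6st was 0.263, 0.354 and 0.427 in control livers and 0.437, 0.802 and 0.965 in lipophagy livers. The groups met without overlapping, and the mean log2 ratio was higher by 1.03, a fold of 2.04. No pseudocount is added to these ratios, unlike to the differences above. With a pseudocount of 1 on both genes the value for Il6ra was 0.81. With a liver left out it ran from 0.80 (without lipophagy liver 3) to 1.37 (without lipophagy liver 1). The ratio of Osmr to Il6st was 0.0922, 0.0997 and 0.104 in control livers and 0.0494, 0.0791 and 0.0741 in lipophagy livers, a difference of -0.57 on the log2 scale. It was -0.36 without lipophagy liver 1, and -0.10 with a pseudocount of 1 on both genes, where the groups overlapped (exact permutation test, p = 0.6). That of Tyk2 was 0.647, 0.816 and 0.854 and then 0.862, 1.06 and 0.900, again without overlap. For Lifr, Jak1, Jak2 and Stat3 the ratios overlapped. The two-sided exact permutation test gave p = 0.1 for the ratios of Il6ra, Osmr and Tyk2, the smallest p that 3 livers against 3 allow. After adjustment over the 7 ratios it was 0.233, so no ratio could pass the threshold. By level, 26.2% of all tested genes did not overlap. The share of them whose ratio to Il6st does not overlap is not given here.

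**Figure D3:**
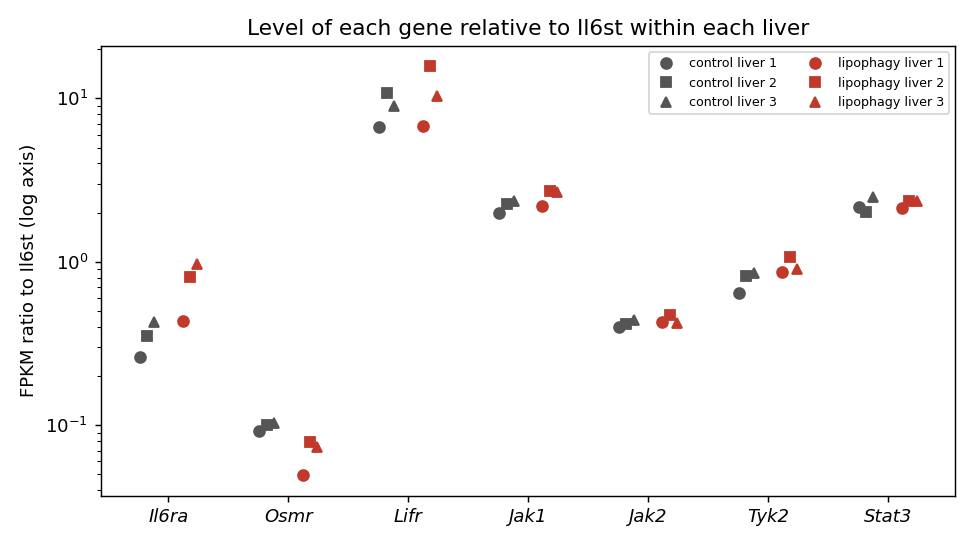
FPKM of each gene divided by the FPKM of Il6st in the same liver (vertical axis, log scale) for 7 genes, in control livers (grey) and lipophagy livers (red), with the marker shape giving the liver number. The 2 colours separate for Il6ra (0.263 to 0.427 against 0.437 to 0.965), Osmr and Tyk2, and they overlap for the other 4 genes.

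The pattern over the 6 livers was compared with that of the other tested genes by the root mean square difference of mean-centred log2(FPKM + 1) values. The gene most like Stat3 was Lrrfip1, at 0.027, followed by G6pc3, Rab11fip2, 2610008E11Rik and Izumo4, beside a spread of 0.14 for Stat3 about its own mean. Osmr was the other gene compared, having the smallest unadjusted p among the 8 tested genes of the 9. The gene closest to Osmr was Ptpn23 at 0.017, followed by Fam109a, Dtx3l, Ptpn21 and Tpr. No gene of the pathway was among these.

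The other genes of the pathway were described by lists. Of 11 other ligands of the family, 4 passed the filter, 2 with a difference above 0 and 2 below, with a median of -0.064. Clcf1, which encodes cardiotrophin-like cytokine factor 1, had 1.99, 1.90 and 2.28 FPKM in control livers and 1.34, 0.828 and 0.932 FPKM in lipophagy livers. Its groups did not overlap and the difference was -0.59 (SE 0.11, adjusted p = 0.116, limma), and Cntf had the highest difference of the list at 0.16 (adjusted p = 0.535).

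Osm, the oncostatin M gene, lay below the filter, at 0.171, 0.144 and 0.168 FPKM in control livers and 0.0961, 0.0748 and 0.115 FPKM in lipophagy livers. These are an estimated 3.59 to 12.0 fragments per liver. Lif, the leukemia inhibitory factor gene, overlapped between the groups, at 0.0961 to 0.160 FPKM and 0.0216 to 0.146 FPKM. Il31 was listed at 0 in all livers. Osm and Lif were low as well, though unlike Il6 they were above 0 in every liver. Ctf1, the gene of cardiotrophin-1, which also signals through Lifr and was named after its values were seen, was at 4.02, 3.75 and 3.39 FPKM in control livers and at 4.28, 3.26 and 3.66 FPKM in lipophagy livers, which overlapped.

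Of 5 other receptors of the family only Il11ra1, the interleukin-11 receptor, passed the filter, with a difference of 0.10 (adjusted p = 0.656, limma), and Il11ra2 was listed at 0 in all livers. Of the 6 tested other JAK and STAT genes, 2 had a difference above 0 and 4 below, with a median of -0.18. Stat2, which acts in interferon signalling, had the lowest difference at -0.26 (adjusted p = 0.243, limma), and Stat5b, which acts below the growth hormone receptor, had the highest at 0.016 (adjusted p = 0.937). Among 10 tested receptors outside the family that use JAK kinases, 3 differences were above 0 and 7 below, with a median of -0.039. They ran from Ifngr1, an interferon gamma receptor chain, at -0.32 (adjusted p = 0.135, limma) to Ghr, the growth hormone receptor, at 0.43 (adjusted p = 0.131).

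Brakes on the pathway and the enzymes that shed its receptors numbered 12, all tested, with 3 differences above 0 and 9 below and a median of -0.13. An unadjusted p below 0.05 was found for 2 of them, both lower, beside 19.5% of all tested genes in either direction and 7.97% in this one. Besides Socs3 it was Socs1, a related inhibitor named here after its values were seen, whose mean of 0.857 FPKM in control and 0.347 FPKM in lipophagy livers passed the filter through the control livers alone. Socs3, the inhibitor that STAT3 induces and that binds gp130, had 8.78, 13.8 and 28.4 FPKM in control livers and 2.67, 3.75 and 4.31 FPKM in lipophagy livers. The control livers spread widely but all lay above the lipophagy livers, with a difference of -1.84 (SE 0.35, adjusted p = 0.118, limma). Pias4, which belongs to a family that restrains STAT proteins, had the highest difference at 0.14 (adjusted p = 0.519).

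The list of STAT3 target genes, which also holds Socs3, had 20 tested genes, of which 5 had a difference above 0 and 15 below. The median was -0.24 beside 0.020 for all tested genes. An unadjusted p below 0.05 was found for 9 genes, all lower, which is 45.0% of the list beside 7.97% of all tested genes in that direction, and 0 passed the adjustment. Also lower at that threshold were 3 of 6 tested other JAK and STAT genes. So were 4 of 6 monocyte-derived macrophage, 2 of 3 neutrophil and 4 of 9 stellate cell markers. Among hepatocyte markers it was 0 of 10 and among bile duct markers 0 of 5. Myc, a growth-promoting transcription factor, had 11.6, 6.14 and 15.1 FPKM in control livers and 1.63, 2.11 and 1.20 FPKM in lipophagy livers. No lipophagy liver came near the control livers, and the difference was -2.11 (SE 0.27, adjusted p = 0.0710, limma). Cebpb, an acute phase transcription factor, had the highest difference at 0.22 (adjusted p = 0.640). Many of these genes answer to signals other than STAT3, and their list was written with earlier results of these data known.

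The acute phase list was mixed. Of its 25 tested genes 7 had a difference above 0 and 18 below, with 4 genes higher and 4 lower at an unadjusted p below 0.05 and a median of -0.094. Over all tested genes 11.5% were higher and 7.97% lower at that threshold. Lcn2, the iron-scavenging lipocalin 2, had 133, 169 and 210 FPKM in control livers and 78.2, 93.6 and 122 FPKM in lipophagy livers, a difference of -0.79 (SE 0.20, adjusted p = 0.139, limma). Saa4, the constitutive serum amyloid A, had 147, 158 and 154 FPKM and then 184, 189 and 235 FPKM, a difference of 0.39 (SE 0.11, adjusted p = 0.154, limma). The groups did not overlap for either gene, and they lay in opposite directions.

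**Figure D4:**
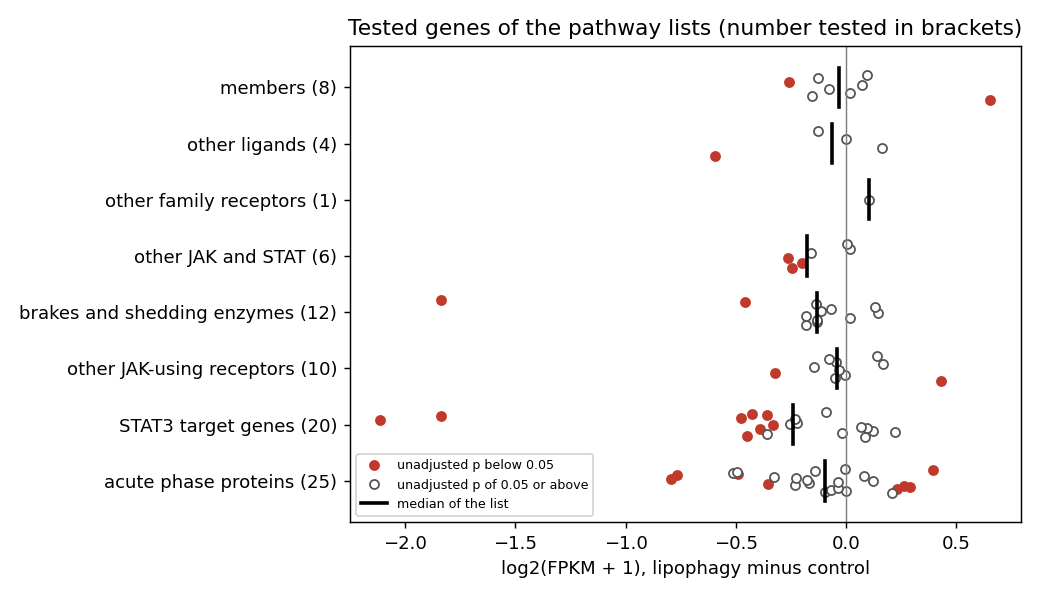
Difference between lipophagy and control livers on the log2(FPKM + 1) scale (horizontal axis) for each tested gene of 8 lists (rows, with the number tested), red where the unadjusted p is below 0.05 and open otherwise, with a black bar at the list median; Socs3 stands in 2 lists. The STAT3 target genes have 9 red points, all below 0, and the acute phase proteins have 4 on each side.

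Markers of the cell types of the liver are given beside these values, and each summed level covers every marker of a list that the table holds, also those below the filter. All 6 tested markers of monocyte-derived macrophages were lower, with a median of -0.28, and the summed level of the list was 63.0 to 94.0 FPKM in control and 59.5 to 69.8 FPKM in lipophagy livers. All 3 tested neutrophil markers were lower, with a median of -0.37, and the 5 markers in the table summed to 18.9 to 32.1 and 16.1 to 18.8 FPKM. Of 9 tested stellate cell markers 7 were lower, with a median of -0.14 and sums of 166 to 200 and 140 to 196 FPKM. Of 5 tested bile duct markers 5 were lower, with a median of -0.53 and sums of 137 to 247 and 92.0 to 196 FPKM, most of which was Spp1 in every liver.

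Resident macrophage markers were split, with 4 above 0 and 5 below, a median of -0.094 and sums of 414 to 460 and 379 to 411 FPKM. Both tested lymphocyte markers were lower, and all 7 of that list, 5 of them below the filter, had sums of 4.14 to 4.32 and 3.10 to 3.35 FPKM. Of 7 sinusoidal endothelial markers 6 were higher, with a median of 0.11 and sums of 22.9 to 29.3 and 27.4 to 44.7 FPKM. Of 10 hepatocyte markers 8 were higher, with a median of 0.21 that became -0.011 after quantile normalization. No marker in the table was at 0 in all livers, and 0 markers of these 8 lists passed the adjusted test. The part of these cell types in the levels of Il6ra, Osmr, Stat3 and the STAT3 target genes was not tested.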

How the data were processed

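RNA of 6 mouse livers (3 control, 3 lipophagy) was analysed, grouped by the sample labels. Libraries were stranded poly(A) paired-end libraries. The authors deposited FPKM values for 24346 gene symbols, scaled to gene length and mapped fragments. The submitters' processing notes list TopHat2 2.0.13, Bowtie2 2.2.3, SAMtools 0.1.19 and Cufflinks 2.2.1 and the build mm10. The annotation is not given in the sources used here. The labels and the methods name different sequencers, a HiSeq and a NovaSeq. Count models were not applied to FPKM.

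From these values log2(FPKM + 1) was computed. Genes averaging 0.5 FPKM or more entered limma 3.58.1 under R 4.3.3 (moderated variance with an intensity trend, no covariate, two-sided, Benjamini-Hochberg adjustment, threshold 0.05). Ratios to Il6st were compared by an exact permutation test with Python 3.11.15 and scipy 1.17.1. The limma fit was tested on simulated data with known changes. Depth was estimated from the steps of low values with GENCODE (GRCm38) transcript lengths less 150 bases, so numbers of fragments are estimates. Fragments of a library without molecular identifiers are not independent molecules, and limits cover counting error only. The p-values measure the spread between 3 livers per group, and no batch is labelled.

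The 9 genes and the lists were chosen with earlier results of these data known. Named are these 9 genes. In each reported list of the pathway, genes with the highest and the lowest difference or an adjusted p below 0.05 are named. Also named are the 5 genes most like Stat3 and the 5 most like the gene of these 9 with the smallest unadjusted p. Osm, Lif, Ctf1, Il31, Il11ra2, Socs1, Spp1 and the ratio of Il6ra to Osmr were added after their values were seen, and the E-box and GC box after the promoter letters were seen. One item of the lists is not reported here. Alternatives were other pseudocounts and filters, quantile normalization, median scaling, limma without the trend, a replicate block and each liver left out in turn.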

Additional observations from a re-analysis of the deposited data

How the results depend on the processing

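Il6ra kept its direction under all 15 alternatives (0.44 to 0.87, adjusted p 0.0884 to 0.344, limma) and Osmr under all 14 that tested it (-0.63 to -0.17, adjusted p 0.153 to 0.365, limma), each with an unadjusted p below 0.05 throughout. With a filter of 1 FPKM, 1 in place of 2 of the 9 genes had an unadjusted p below 0.05, because Osmr was not tested. With a liver left out the count was 2 to 2. With a liver left out, Lifr ran from -0.13 to 0.31, Jak1 from -0.046 to 0.051, Il6st from -0.21 to -0.066 (without control liver 1), Jak2 from -0.11 to -0.027 (without control liver 1) and Stat3 from -0.23 (without control liver 2) to -0.047 (without control liver 1). Lifr turned to -0.058 after quantile normalization, -0.010 without control liver 1 and -0.13 without lipophagy liver 2. Jak1 turned to -0.062 after quantile normalization, -0.0072 without control liver 2 and -0.046 without lipophagy liver 3. The log2 ratio to Il6st turned to -0.046 for Lifr without lipophagy liver 2 and to -0.022 for Stat3 without control liver 2, with ranges up to 0.56 and 0.13, and that of Tyk2 was 0.17 without control liver 1. With a liver left out 3 to 4 ratios did not overlap, and with a pseudocount of 1 on both genes 2 did not, since Osmr (-0.10) overlapped. Groups are more easily apart with fewer livers. The share of all tested genes whose ratio to Il6st does not overlap is not given beside these counts. The median of other ligands was -0.30 with a filter of 1 FPKM, where 2 genes were left, and that of acute phase proteins was -0.29 after quantile normalization, which moved other JAK-using receptors to -0.074, stellate cell markers to -0.25 and resident macrophage markers to -0.23. A pseudocount of 0.1 moved monocyte-derived macrophage markers to -0.47 and one of 0.5 to -0.36. With a liver left out, the median of other ligands ran from -0.13 to 0.0068 (without lipophagy liver 2), that of acute phase proteins from -0.12 to -0.023 (without control liver 3), that of other JAK-using receptors from -0.064 to -0.017 and the value of Il11ra1 from 0.028 (without lipophagy liver 2) to 0.23 (without lipophagy liver 3). The median of other JAK and STAT genes then ran from -0.24 to -0.12 and that of STAT3 target genes from -0.37 (without lipophagy liver 3) to -0.17. Medians of cell type markers ran, with a liver left out, from -0.82 to -0.37 for bile duct, -0.63 to -0.24 for neutrophils, -0.25 to -0.076 for stellate cells, -0.17 to -0.041 for resident macrophages and 0.023 to 0.22 for sinusoidal endothelium. Over all tested genes, 3 passed the adjusted test, 1 did with no filter, and 1 to 11 did with a liver left out (7 when control liver 2 was dropped and 1 for control liver 3, 5 for lipophagy liver 2 and 11 for lipophagy liver 3). With the replicate number as a block 43 genes passed. Between livers with the same number, deviations from the group mean had r of 0.25, 0.23 and -0.057. Between control liver 3 and lipophagy liver 2, r was 0.25. With 3 livers per group these values cannot settle whether the numbers pair the livers. None of the genes Il6ra, Osmr, Lifr, Il6st, Jak1, Jak2, Tyk2 and Stat3 passed the adjusted test under any of these alternatives. The cause of these shifts was not tested, apart from the filters. Depth limits Il6, Osm and Lif most, at a few fragments per liver.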

Other observations

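The 2 receptor chains with non-overlapping levels were also set against each other, a ratio chosen after their values were seen and given with no test. The FPKM ratio of Il6ra to Osmr averaged 3.50 ± 0.631 (SD, n = 3) over control livers, and its mean over lipophagy livers came to 10.7 ± 2.15 (SD, n = 3). The lowest lipophagy liver, at 8.84, was above the highest control liver, at 4.11.

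The study's supplementary tables give a pair of PCR primers for Il6, which are shown because of where they lie on the gene.
Forward primer: ccaagaggtgagtgcttccc
Reverse primer: ctgttgttcagactctctccct
Of the 4 coding Il6 transcripts in GENCODE (GRCm38), both primers matched exactly only Il6-203, at chr5:30018148-30018167 and chr5:30018244-30018265. In the 1141-base transcript, which has 5 exons, exon 4 ends at position 30018154 and exon 5 starts at 30019381. The forward primer therefore begins in exon 4 of that transcript and runs past its end, and the reverse primer lies in the intron that follows. In Il6-203 the same exon goes on to position 30019981. On the other 3 transcripts the best match of the forward primer had 6 to 9 mismatches and that of the reverse primer had 9. The deposited FPKM table gives 1 value for Il6 and does not separate its transcripts, so the level of Il6-203 in these livers is not known from it.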
